A study of Mus musculus with 9 samples.

Results

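The BCL2 family decides whether a cell commits to the mitochondrial route of apoptosis, and 10 of its genes were followed here at the RNA level: Bcl2, Bcl2l1, Mcl1, Bax, Bak1, Bid, Bad, Bcl2l11, Bbc3 and Pmaip1. They were chosen by name as members of the family and taken from a count table of 24444 mouse gene symbols. All 10 were found and all 10 had enough counts to be tested, among 15171 tested genes. RNA-seq libraries came from 3 groups of 3. MycT58A tumours and EV tumours (EV is read here as empty vector) grew in the cerebellum of CD1-nude mice, hosts that lack a thymus, from implanted mWnt-MB cells, read here as a mouse model of WNT medulloblastoma; their GFP-positive regions were cut out for RNA. Those cells came from mice with Blbp-Cre, in which the Blbp promoter drives the recombinase. Their other alleles were labelled Ctnnb1Ex3flx/flx, which stabilises beta-catenin once exon 3 is lost, Trp53flx/flx and Pik3caE545K +/flx, an activated PI3-kinase subunit. Both tumour groups share all of these alleles and differ in their genotype label by MycT58A, a form of Myc whose protein is degraded slowly, or EV. Control cerebellum was normal tissue of CD1-nude mice, for which the labels list no engineered allele. Ages are not in the labels, nor is the number of cell preparations behind each set of 3 tumours, so the p-values reflect variation among these 9 samples, which may be technical.

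Members of this family work against each other on the outer mitochondrial membrane. BCL2, BCL-XL (the product of Bcl2l1) and MCL1 hold the effectors BAX and BAK in check, and BAX and BAK, once active, open the membrane and release cytochrome c, which starts the caspase cascade. The BH3-only proteins BID, BAD, BIM (Bcl2l11), PUMA (Bbc3) and NOXA (Pmaip1) carry stress signals to the others. Several of these genes, among them Bax, Bbc3 and Pmaip1, are known transcriptional targets of p53, the protein product of Trp53. Many steps of the pathway act on protein (cleavage, phosphorylation, turnover) and are not seen in RNA counts.

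Levels are in CPM, counts divided by the library's total after TMM scaling and set to a common total, and folds and p-values come from edgeR's quasi-likelihood test, adjusted over all tested genes with a threshold of 0.05. Total counts per library were 16631523 to 30410089. The engineered gene Myc did not follow the vector labels in every library: it stood at 918, 859 and 727 CPM in MycT58A tumours, at 360, 19.9 and 762 CPM in EV tumours and at 0.94, 1.59 and 32.0 CPM in controls. The third EV library, within the MycT58A range, is therefore called the library labelled EV replicate 3. Trp53 was lower in EV tumours (6.88 ± 2.19 CPM) than in controls (14.8 ± 2.25 CPM; SD, n = 3 each; edgeR adjusted p = 0.0162), and stood at 9.22 ± 2.01 CPM in MycT58A tumours (edgeR adjusted p = 0.0858). The Trp53 call ended without control replicate 3 (edgeR adjusted p = 0.0679) and with limma-voom weighted by group (adjusted p = 0.107). EV tumours varied most: the median SD of a tested gene was 0.20 log2 units in MycT58A tumours, 0.64 in EV tumours and 0.17 in controls. The sample labels call the control cerebellum and a protocol note calls it cortex; Gabra6 of cerebellar granule neurons averaged 2.87 CPM in MycT58A tumours, 1.80 CPM in EV tumours and 733 CPM in controls. Among forebrain markers, Emx1 had no count in any library, and Neurod6 (0.248 to 0.426 CPM in MycT58A tumours, 0 to 0.0343 CPM in EV tumours and 2.82 to 4.67 CPM in controls) and Tbr1 were lower in the tumours.

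Other cell types differed with the groups, and their part in the results that follow was not tested. The summed level of 6 granule neuron markers was 22.8 to 51.5 CPM in MycT58A tumours, 9.66 to 28.1 CPM in EV tumours and 2621 to 3805 CPM in controls. For 8 microglia and macrophage markers it was 53.9 to 118 CPM in MycT58A tumours, 307 to 449 CPM in EV tumours and 173 to 202 CPM in controls. For 7 pericyte and fibroblast markers it was 1264 to 1629 CPM, 1691 to 10810 CPM and 274 to 345 CPM in MycT58A tumours, EV tumours and controls. Oligodendrocyte markers (5 genes) summed to 41.2 to 623 CPM in MycT58A tumours, 76.7 to 280 CPM in EV tumours and 2697 to 4961 CPM in controls, and 6 astrocyte markers to 265 to 540, 630 to 776 and 3083 to 3919 CPM. Endothelial markers (6 genes) summed to 46.7 to 83.0, 51.2 to 252 and 195 to 216 CPM, and 5 epithelial keratin and adhesion markers to 1.56 to 3.62, 17.3 to 237 and 1.29 to 2.70 CPM. Of 7 lymphocyte markers the sums were 1.99 to 3.56, 5.78 to 18.8 and 2.49 to 3.77 CPM. Of 4 forebrain markers they were 5.47 to 6.03, 1.66 to 12.6 and 3.68 to 6.02 CPM, in the same order of groups. In such bulk tissue, fewer cells of a type and less RNA per cell cannot be told apart.

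Against control cerebellum, most of the family was at another level in the tumours. In EV tumours Bak1 and Bid were about 10 times as high, and Mcl1, Bcl2l11, Bax and Bbc3 also rose, while Bcl2 fell, so that 6 of 10 members rose and 1 fell. In MycT58A tumours the same 6 rose and Bcl2l1 fell together with Bcl2. Changes were common among all genes too: 30.7% of tested genes rose and 26.3% fell in EV tumours, and 31.2% rose and 31% fell in MycT58A tumours, or 57% and 62.2% in either direction. The median log2 fold change of the 10 members was 1.34 in EV tumours and 1.27 in MycT58A tumours, beside 0.14 and -0.02 over all tested genes. Both comparisons use the same 3 controls. Between the tumour groups 0 of 10 members passed, where 8.3% of tested genes did (3.28% higher, 5.02% lower). In EV tumours 6 members lay wholly above and 2 wholly below the controls, beside 30.3% and 32.2% of all tested genes (62.5% together). In MycT58A tumours 7 lay above and 2 below, beside 41% and 41.5% (82.5% together).

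**Figure D1:**
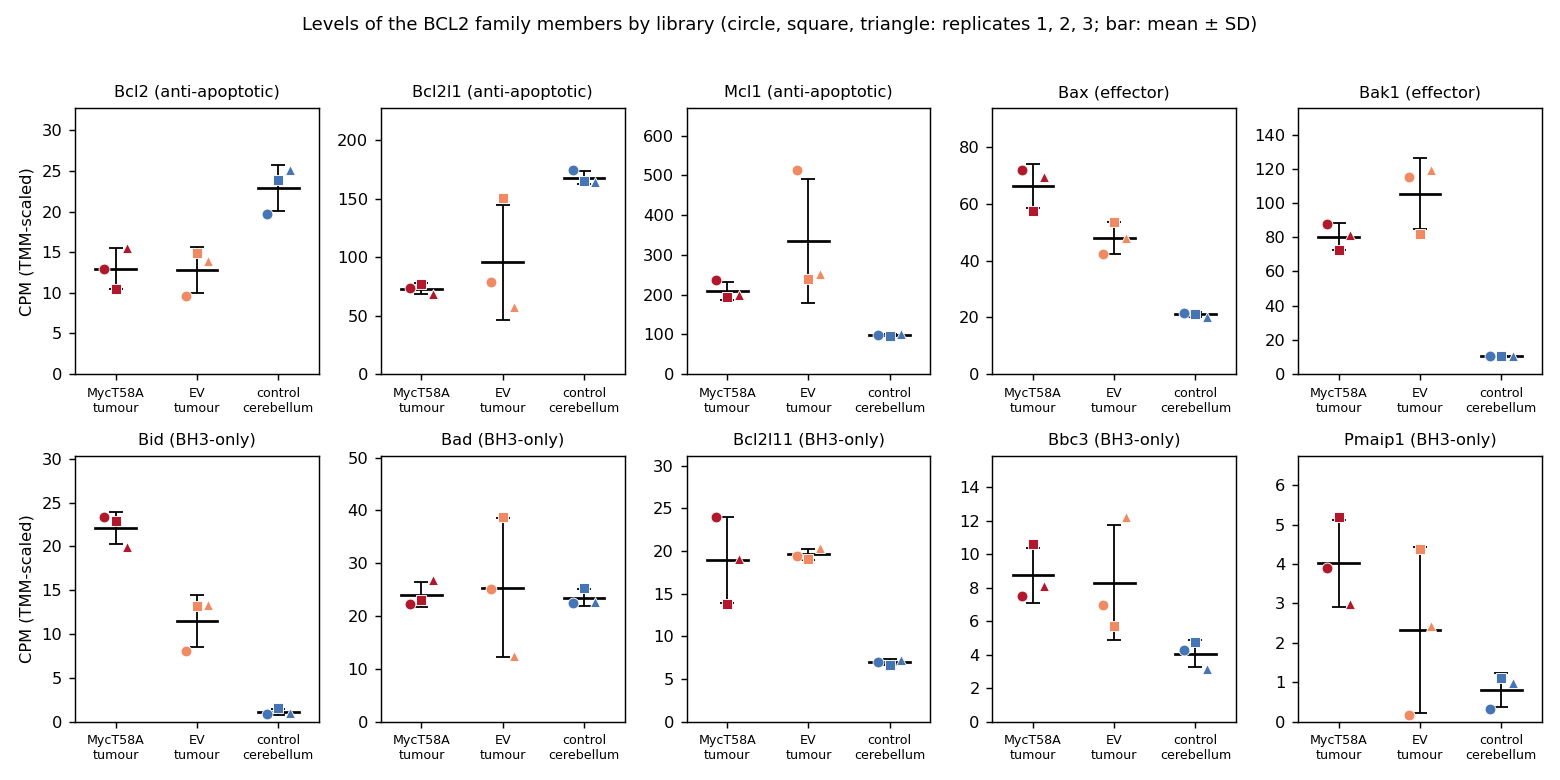
Level of each of the 10 BCL2 family genes (CPM, vertical axis from 0) in MycT58A tumours, EV tumours and control cerebellum, with 1 point a library (shape marks the replicate) and the mean ± SD as lines. Bak1, Bid, Bax, Mcl1 and Bcl2l11 lie higher in every tumour library than in any control, and Bcl2 and Bcl2l1 lie lower.

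The anti-apoptotic members moved in opposite directions. The gene Mcl1, whose protein turns over fast, lies on chromosome 3 from 95658788 to 95663176 (mm10, as for all positions here). Its level was 236, 193 and 199 CPM in MycT58A tumours, 514, 239 and 252 CPM in EV tumours and 98.97, 96.4 and 100.2 CPM in controls. All 6 tumour libraries were above all 3 controls, and EV replicate 1 was far above the other tumours. Mcl1 rose 3.4-fold in EV tumours (log2 fold change 1.77 ± 0.30 SE, edgeR adjusted p = 0.00142). In MycT58A tumours Mcl1 rose 2.12-fold (1.09 ± 0.30, edgeR adjusted p = 0.0118). These calls were kept in all 17 alternatives run.

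Bcl2l1, which encodes BCL-XL, the survival protein that mature neurons depend on (chromosome 2, 152780668 to 152831728), stood at 73.4, 77.2 and 68.1 CPM in MycT58A tumours. It stood at 78.8, 151 and 57.0 CPM in EV tumours and at 175, 165 and 164 CPM in controls. Each tumour library was below each control, with EV replicate 2 close to them. Bcl2l1 fell 2.3-fold in MycT58A tumours (log2 fold change -1.20 ± 0.32 SE, edgeR adjusted p = 0.0104), a call kept in all 17 alternatives. In EV tumours it was 1.76-fold lower with edgeR adjusted p = 0.0545, and passed in 4 of 17 alternatives: without EV replicate 2 (log2 fold change -1.30, edgeR adjusted p = 0.000353), with DESeq2 (adjusted p = 0.0383) and with limma-voom without and with weights by group (adjusted p = 0.0266 and 0.0193).

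Bcl2, the founding member of the family (chromosome 1, 106538178 to 106714274), stood at 12.9, 10.5 and 15.6 CPM in MycT58A tumours, at 9.59, 14.9 and 13.9 CPM in EV tumours and at 19.7, 23.8 and 25.2 CPM in controls. The tumour groups overlapped each other and lay below all controls. Bcl2 fell 1.76-fold in MycT58A tumours (log2 fold change -0.82 ± 0.26 SE, edgeR adjusted p = 0.0239) and 1.79-fold in EV tumours (-0.84 ± 0.26, edgeR adjusted p = 0.0238). Both calls lay near the threshold. The call in MycT58A tumours ended without control replicate 2 or 3 or MycT58A replicate 1 or 2, at edgeR adjusted p = 0.0702, 0.0853, 0.0726 and 0.0921. That in EV tumours ended without control replicate 2 or 3 or EV replicate 1, at edgeR adjusted p = 0.0763, 0.0903 and 0.0509. It also ended when MycT58A libraries were kept out of the fit (edgeR adjusted p = 0.0546) and with limma-voom weighted by group (adjusted p = 0.118).

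Set side by side within a library, Mcl1 and Bcl2l1 changed places. The ratio of Mcl1 to Bcl2l1 counts was 3.21, 2.5 and 2.93 in MycT58A tumours and 6.52, 1.59 and 4.42 in EV tumours, against 0.566, 0.583 and 0.611 in controls. Per kb of annotated exon, Mcl1 made up 79.8%, 75.8% and 77.9% of the counts of the 3 anti-apoptotic genes in MycT58A tumours and 89.2%, 67% and 84.1% in EV tumours. In controls its share was 41.8%, 42.2% and 43.2%, and Bcl2l1 held 55.1%, 53.9% and 52.7%. Bcl2 held 0.621% to 2.27% in the 6 tumour libraries and 3.11% to 4.05% in controls. These shares use the union of all annotated exons as length and are given as a description, with no test.

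**Figure D2:**
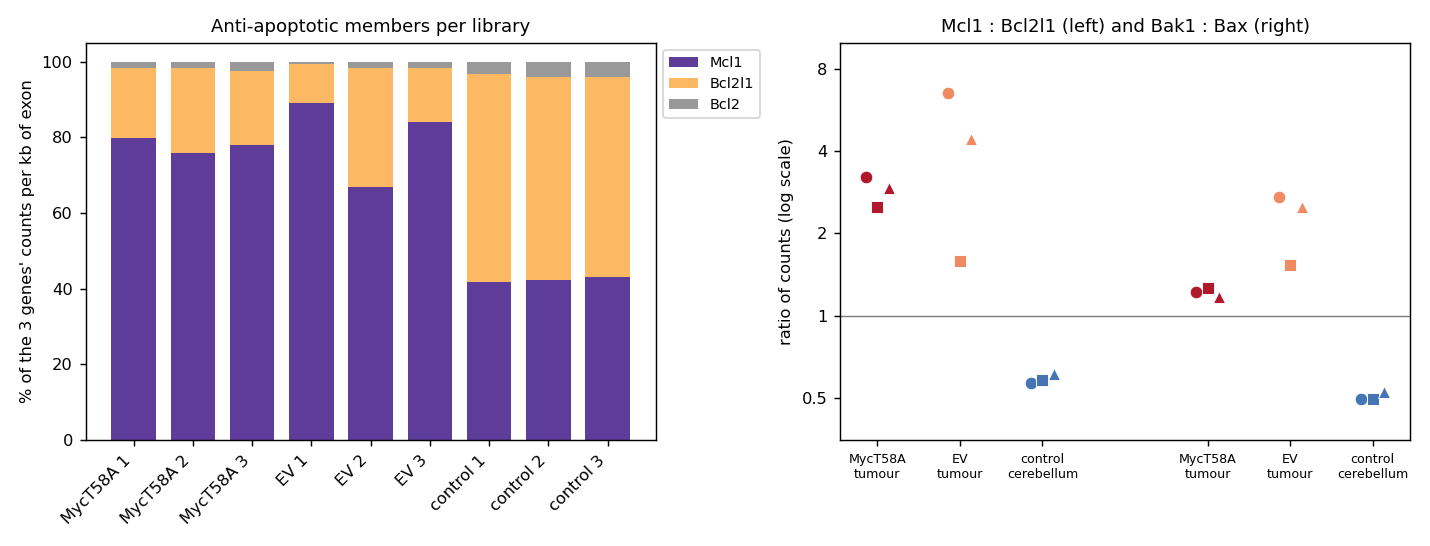
Left, share of Mcl1, Bcl2l1 and Bcl2 in their summed counts per kb of exon (%) for each of the 9 libraries. Right, ratio of Mcl1 to Bcl2l1 and of Bak1 to Bax counts (log axis), 1 point a library. Mcl1 holds 67% to 89.2% in the tumour libraries and 41.8% to 43.2% in controls. Both ratios of counts exceed 1 in every tumour library and stay below 1 in every control. Per kb of exon, Bak1 was below Bax in MycT58A tumours (means 33.4 and 42 CPM per kb).

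Both effectors rose in the tumours. Bak1, which encodes BAK, resident on the mitochondrial outer membrane (chromosome 17, 27019810 to 27029009), stood at 87.8, 72.3 and 81.1 CPM in MycT58A tumours. It stood at 115, 81.8 and 120 CPM in EV tumours and at 10.7, 10.5 and 10.6 CPM in controls. No tumour library came near the controls. Bak1 rose 9.97-fold in EV tumours (log2 fold change 3.32 ± 0.21 SE, edgeR adjusted p = 2.04e-05); in MycT58A tumours it was 7.6-fold (2.93 ± 0.20, edgeR adjusted p = 2.48e-05). Exons of Ggnbp1 on the other strand overlap Bak1; Ggnbp1 averaged 0.632 CPM in MycT58A tumours, 0.905 CPM in EV tumours and 0.391 CPM in controls.

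Bax, whose protein moves from cytosol to mitochondria on activation (chromosome 7, 45461697 to 45466898), stood at 72.0, 57.5 and 69.3 CPM in MycT58A tumours, at 42.4, 53.5 and 47.9 CPM in EV tumours and at 21.6, 21.3 and 20.1 CPM in controls. The 3 groups did not overlap. Bax rose 3.16-fold in MycT58A tumours (log2 fold change 1.66 ± 0.18 SE, edgeR adjusted p = 0.000123) and 2.28-fold in EV tumours (1.19 ± 0.18, edgeR adjusted p = 0.000682). The ratio of Bak1 to Bax counts was 1.22, 1.26 and 1.17 in MycT58A tumours and 2.72, 1.53 and 2.49 in EV tumours, against 0.493, 0.494 and 0.526 in controls. Per kb of exon the order in MycT58A tumours was the reverse, with means of 33.4 CPM per kb for Bak1 and 42 for Bax. In EV tumours these means were 43.8 and 30.4, and in controls 4.39 and 13.3. The bases before the Bax start are shown because Bax had most matches to the searched motifs among the members searched (RefSeq, GRCm38.p6, minus strand, chr7:45466899-45467148). Capitals mark an E-box (CACGTG, the site of MYC and MAX) and, in a single run, a p53 half-site overlapping a TCF/LEF core (CTTTGA).
Bax: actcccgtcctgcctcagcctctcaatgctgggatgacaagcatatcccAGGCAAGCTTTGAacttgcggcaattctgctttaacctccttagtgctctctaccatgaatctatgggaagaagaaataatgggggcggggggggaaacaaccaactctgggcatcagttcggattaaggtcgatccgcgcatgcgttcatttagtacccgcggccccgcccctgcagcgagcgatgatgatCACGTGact

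Bid rose most of all members. Its protein is cleaved by caspase-8 and so links death receptors to mitochondria (chromosome 6, 120891930 to 120916853). It stood at 23.3, 22.9 and 20.0 CPM in MycT58A tumours, at 8.08, 13.2 and 13.3 CPM in EV tumours and at 0.899, 1.55 and 0.98 CPM in controls. The 3 groups did not overlap, and the controls rest on 22, 35 and 21 counts. Bid rose 19.2-fold in MycT58A tumours (log2 fold change 4.26 ± 0.35 SE, edgeR adjusted p = 4.3e-05) and 10-fold in EV tumours (3.33 ± 0.34, edgeR adjusted p = 0.000114). Exons of Bcl2l13, a mitochondrial relative of the family on the other strand, cover 17.7% of the Bid exon bases. Bcl2l13 stood at 97.0 ± 5.4 CPM in MycT58A tumours, 70.7 ± 13.5 CPM in EV tumours and 56.1 ± 1.07 CPM in controls (SD, n = 3 each), so its fold was far smaller than that of Bid; whether counting used strand is not known. The bases before the annotated exons of Bid are shown for contrast with Bax, since they hold none of the searched letters (minus strand, chr6:120916854-120917074).
Bid: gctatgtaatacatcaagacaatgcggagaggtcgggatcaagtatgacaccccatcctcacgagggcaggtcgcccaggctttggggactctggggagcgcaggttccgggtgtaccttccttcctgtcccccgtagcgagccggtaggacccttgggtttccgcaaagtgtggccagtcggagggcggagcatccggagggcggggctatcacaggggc

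Bcl2l11, which encodes BIM, a BH3-only protein that binds every anti-apoptotic member (chromosome 2, 128126038 to 128162547), stood at 23.9, 13.8 and 19.0 CPM in MycT58A tumours. It stood at 19.5, 19.1 and 20.4 CPM in EV tumours and at 7.03, 6.65 and 7.28 CPM in controls. The tumour groups overlapped each other and stood clear of the controls. Bcl2l11 rose 2.81-fold in EV tumours (log2 fold change 1.49 ± 0.25 SE, edgeR adjusted p = 0.00129); in MycT58A tumours it was 2.71-fold (1.44 ± 0.25, edgeR adjusted p = 0.00126). Bcl2l11 is a known target of FOXO factors, and the bases before its start are shown for the FOXO core in capitals (TGTTTAC read on the other strand; plus strand, chr2:128125788-128126037).
Bcl2l11: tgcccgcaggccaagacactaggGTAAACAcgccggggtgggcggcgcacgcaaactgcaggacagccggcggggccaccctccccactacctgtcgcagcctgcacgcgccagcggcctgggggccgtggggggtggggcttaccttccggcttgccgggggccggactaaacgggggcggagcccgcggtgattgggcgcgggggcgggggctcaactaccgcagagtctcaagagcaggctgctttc

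RefSeq windows before a start were searched for 9 of the 10 members (15 windows of 250 bases). Windows on chromosome 18 were left out of the search, and with them Pmaip1. The E-box CACGTG, searched on both strands, was in 2 of the 15 windows (Bax and Bbc3). It was in 6.02% of 32851 windows of all genes outside chromosome 18. The core CTTTGA was in 1 (13.8% of all), the FOXO core TGTTTAC in 2 (Bcl2l11 and Bbc3; 3.17% of all) and the p53 half-site in 1 (7.13% of all). These are matches of letters and not binding sites.

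Bbc3, which encodes PUMA (chromosome 7, 16308393 to 16318205), stood at 7.52, 10.6 and 8.10 CPM in MycT58A tumours, at 6.99, 5.69 and 12.2 CPM in EV tumours and at 4.29, 4.74 and 3.17 CPM in controls. All tumour libraries lay above all controls, EV replicate 2 by the least. Bbc3 rose 2.14-fold in MycT58A tumours (log2 fold change 1.10 ± 0.36 SE, edgeR adjusted p = 0.0269) and 2.03-fold in EV tumours (1.02 ± 0.36, edgeR adjusted p = 0.0389). In MycT58A tumours the call ended without any 1 of the 3 controls or without MycT58A replicate 2 or 3 (edgeR adjusted p = 0.0531 to 0.102). In EV tumours it ended without the library labelled EV replicate 3, any 1 control or any 1 MycT58A library (edgeR adjusted p = 0.0537 to 0.126). It also ended there with only the 2 groups in the fit (edgeR adjusted p = 0.0812) and with limma-voom without and with weights by group (adjusted p = 0.0664 and 0.157).

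Pmaip1, which encodes NOXA, a short BH3-only protein that binds MCL1 (chromosome 18, 66458533 to 66465565), was the least abundant member in CPM. It stood at 3.89, 5.18 and 2.98 CPM in MycT58A tumours, at 0.171, 4.38 and 2.44 CPM in EV tumours and at 0.327, 1.11 and 0.98 CPM in controls. EV replicate 1 lay below every control, and the MycT58A libraries lay above all controls. The fold was 4.98 for Pmaip1 in MycT58A tumours (log2 fold change 2.32 ± 0.95 SE, 95% interval 0.15 to 4.48, edgeR adjusted p = 0.0604) and 2.88 in EV tumours (1.53 ± 0.94, interval -0.60 to 3.66, edgeR adjusted p = 0.19). In EV tumours the log2 fold change of Pmaip1 was 2.08 without EV replicate 1, where it passed (edgeR adjusted p = 0.0178), and 0.67 without EV replicate 2 (edgeR adjusted p = 0.553). In MycT58A tumours it passed in 5 of 17 alternatives: without EV replicate 1 or 2 (edgeR adjusted p = 0.00661 and 0.0413), with all EV libraries kept out of the fit (edgeR adjusted p = 0.00225), with DESeq2 (adjusted p = 0.0247) and with limma-voom weighted by group (adjusted p = 0.000828).

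Bad, a BH3-only protein held inactive by phosphorylation downstream of AKT (chromosome 19, 6941861 to 6951899), passed in no comparison. It stood at 22.4, 23.0 and 26.8 CPM in MycT58A tumours, at 25.2, 38.7 and 12.4 CPM in EV tumours and at 22.5, 25.3 and 22.7 CPM in controls. MycT58A tumours and controls covered nearly one range, and the EV libraries spread to both sides of it. The log2 fold change was 0.03 in MycT58A tumours (95% interval -0.79 to 0.86, edgeR adjusted p = 0.942) and 0.11 in EV tumours (-0.71 to 0.94, edgeR adjusted p = 0.804). Its sign turned without EV replicate 2 (-0.31 in EV tumours) and, in MycT58A tumours, with library-size scaling (-0.06). Exons of Gpr137 on the other strand cover 20.5% of the Bad exon bases. Gpr137 stood at 10.3 to 12.5 CPM in MycT58A tumours, 8.51 to 42.7 CPM in EV tumours and 69.2 to 101.5 CPM in controls, and its part in the Bad values was not tested.

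**Figure D3:**
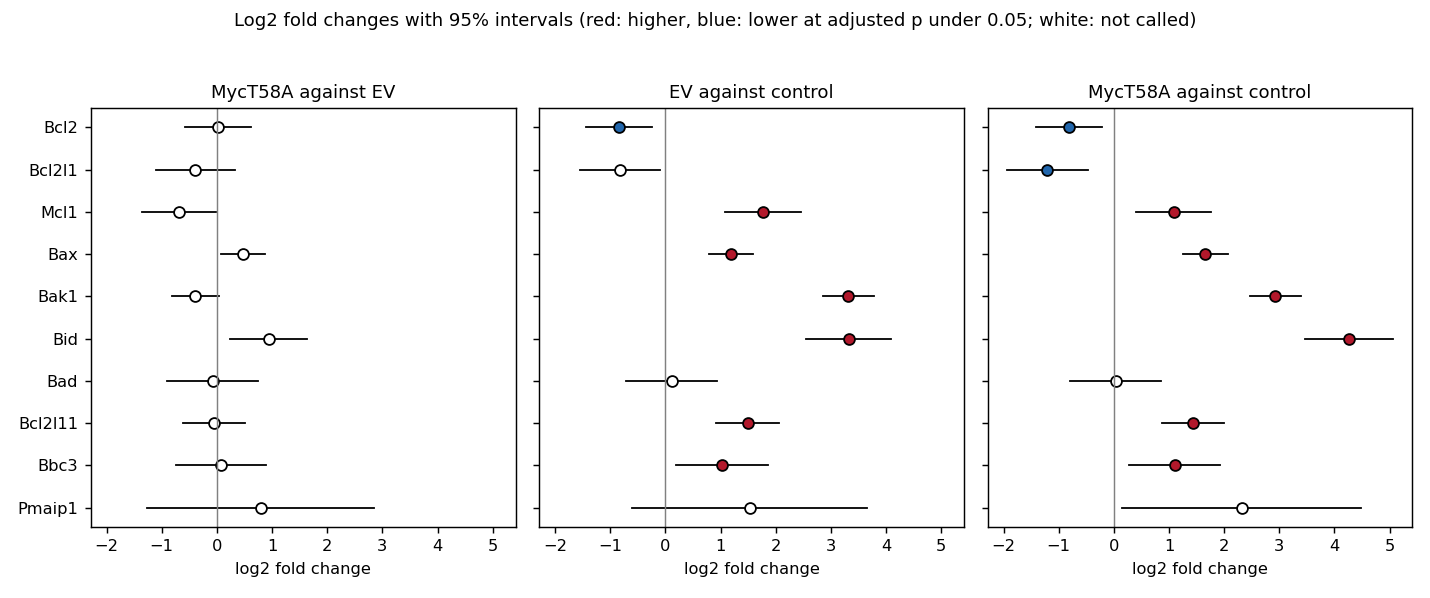
Log2 fold change (horizontal axis, with 95% interval) of the 10 members in MycT58A against EV tumours, EV tumours against control and MycT58A tumours against control. Filled points passed an edgeR adjusted p of 0.05: 0, 7 and 8 of the 10 members in the 3 panels. Of all tested genes, 8.3%, 57% and 62.2% passed, in the same order.

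MycT58A and EV tumours share their other engineered alleles and differ in genotype label. Myc RNA was 2.19-fold higher in MycT58A tumours (edgeR adjusted p = 0.592), and the 2 groups overlapped in it. Comparing them therefore sets label against label, and not separate Myc levels. Here 0 of 10 members passed edgeR, where 8.3% of all tested genes did. Of the 10, 3 had an unadjusted p under 0.05 (Mcl1, Bax and Bid), close to the 31.1% of all tested genes that did. DESeq2 and limma-voom each called 1, Bid. Bid was 1.91-fold higher in MycT58A tumours (log2 fold change 0.94 ± 0.31 SE, 95% interval 0.24 to 1.63, edgeR adjusted p = 0.084) and Bax 1.38-fold higher (0.47 ± 0.17, interval 0.07 to 0.86, edgeR adjusted p = 0.112). Mcl1 was 1.6-fold lower (-0.68 ± 0.29, interval -1.35 to -0.01, edgeR adjusted p = 0.157). For these 3 genes the MycT58A and EV libraries did not overlap; among all tested genes 18.2% lay wholly higher and 13.6% wholly lower in MycT58A tumours, or 31.8% together.

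Bak1 was 1.31-fold lower in MycT58A tumours (edgeR adjusted p = 0.19). Without EV replicate 2, Bak1 and Bax both passed in opposite directions, Bak1 at -0.55 and Bax at 0.55 on the log2 scale (edgeR adjusted p = 0.0314 and 0.0494). Without the library labelled EV replicate 3, Bid passed (1.06 log2 units higher, edgeR adjusted p = 0.0463), and the other 9 members did not. The intervals for Bcl2 (-0.57 to 0.62), Bcl2l11 (-0.61 to 0.50), Bbc3 (-0.74 to 0.89) and Bcl2l1 (-1.11 to 0.33) leave room for changes in either direction. In 8 of 10 members the SD of log2 CPM was larger among EV than among MycT58A libraries, beside 86.1% of all tested genes. The exceptions were Bcl2l11, with 0.40 in MycT58A and 0.05 log2 units in EV tumours, and Bax, with nearly equal values of 0.17.

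Summed over the family, counts of the 7 pro-apoptotic members were 0.748, 0.732 and 0.803 times those of the 3 anti-apoptotic members in MycT58A tumours. In EV tumours the ratio was 0.361, 0.535 and 0.707, against 0.229, 0.249 and 0.227 in controls. Every tumour library was above every control, and every MycT58A library above every EV library. Per kb of exon the same ratio was 1.22, 1.22 and 1.35 in MycT58A tumours and 0.549, 0.895 and 1.12 in EV tumours, against 0.437, 0.474 and 0.428 in controls, so which side is larger in the tumours depends on the scale. The ratio of Bax to Bcl2 counts was 5.59, 5.47 and 4.45 in MycT58A tumours and 4.42, 3.59 and 3.45 in EV tumours, against 1.1, 0.892 and 0.798 in controls. That of Bax to Bcl2l1 was 0.981, 0.745 and 1.02 in MycT58A tumours and 0.537, 0.355 and 0.841 in EV tumours, against 0.124, 0.129 and 0.122 in controls. In Bax to Bcl2l1 the tumour groups overlapped each other. These ratios use members chosen with results known and have no test. They leave out other relatives, among them anti-apoptotic Bcl2l2, which averaged 16.1 CPM in MycT58A tumours, 14.65 CPM in EV tumours and 151 CPM in controls.

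Compared per kb of exon, which allows genes to be set beside each other, Mcl1 had the highest level of the 10 members in both tumour groups and Bcl2l1 in controls. In MycT58A tumours Mcl1 (61.2 ± 6.73 CPM per kb) was followed by Bax (42 ± 4.9) and Bak1 (33.4 ± 3.22). In EV tumours Mcl1 (98 ± 45.5) was followed by Bak1 (43.8 ± 8.58) and Bax (30.4 ± 3.52). In controls Bcl2l1 (36.6 ± 1.28) was followed by Mcl1 (28.8 ± 0.579) and Bax (13.3 ± 0.515), and Bak1 stood at 4.39 ± 0.0353 (SD, n = 3 for each). In MycT58A tumours the ranges of these neighbours met, with 36.5 to 45.7 CPM per kb for Bax and 30 to 36.5 CPM per kb for Bak1. In EV tumours Bak1 covered 34 to 49.7 and Bax 26.9 to 33.9 CPM per kb. At the low end Bcl2 and Pmaip1 overlapped in MycT58A tumours, at 1.15 to 1.7 and 1.09 to 1.9 CPM per kb. In controls Bid and Pmaip1 overlapped at 0.253 to 0.437 and 0.12 to 0.405 CPM per kb.

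Other BCL2 relatives, 15 genes of which 10 had enough counts, moved in both directions against control. In EV tumours 3 rose and 3 fell (median log2 fold change 0.16) and in MycT58A tumours 3 rose and 2 fell (0.24). Of all tested genes, 57% passed in EV tumours (median 0.14) and 62.2% in MycT58A tumours (median -0.025), in either direction. Bcl2l2, which encodes the anti-apoptotic protein BCL-W, fell to 16.1 ± 0.31 CPM in MycT58A and 14.65 ± 5.89 CPM in EV tumours, against 151 ± 7.72 CPM in controls (SD, n = 3 each; edgeR adjusted p = 6.19e-05 and 6.16e-05). Bok, a BAX-like effector, rose 3.72-fold in MycT58A and 4.73-fold in EV tumours, and Bcl2l12 11.3-fold and 6.32-fold. Bcl2l15 fell to 0.298 CPM or less in every tumour library, against 18.5 to 34.8 CPM in controls. Hrk, a BH3-only gene of neurons, stood at 0.0685, 0.085 and 1.59 CPM in EV tumours, against 4.045, 6.56 and 5.32 CPM in controls. It was 9.46-fold lower (edgeR adjusted p = 0.0415) and 64.4-fold lower without the library labelled EV replicate 3; the call ended without any 1 control, EV replicate 1 or 2, or MycT58A replicate 1 or 3 (edgeR adjusted p = 0.0551 to 0.102). Bcl2l13 rose 1.73-fold in MycT58A tumours, and Bcl2a1b, an anti-apoptotic gene of blood cells with near-identical copies, rose 8.95-fold in EV tumours from a control mean of 0.203 CPM. Between the tumours 1 of the 10 tested relatives was lower in MycT58A tumours and 0 were higher. Of all tested genes, 5.02% were lower and 3.28% higher there. The 1 was Bmf, a BH3-only gene (edgeR adjusted p = 0.0457). It stood at 4.36 ± 1.41 CPM in MycT58A tumours, against 13.4 ± 5.7 CPM in EV tumours (SD, n = 3 each).

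Downstream of the family, all 19 genes of the apoptosome, caspase and IAP list were tested (IAPs are proteins that inhibit caspases). In EV tumours 11 rose and 4 fell (median log2 fold change 1.21), and in MycT58A tumours 11 rose and 3 fell (1.60). Of all tested genes, 30.7% rose and 26.3% fell in EV tumours (median 0.14), and 31.2% rose and 31% fell in MycT58A tumours (median -0.025). Among the rises in EV tumours were Casp2 (6.75-fold), Casp6 (15.6-fold, or 9.57-fold without EV replicate 1) and Aifm1 of the mitochondrial intermembrane space (3.45-fold). In MycT58A tumours Casp2 rose 9.89-fold, Diablo, which antagonises IAPs, 3.03-fold and Aifm1 3.95-fold. Casp6 rose there too (7.11-fold), as did Diablo in EV tumours (2.31-fold).

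Birc5, which encodes survivin, a mitotic protein and IAP, rose to 60.6 ± 9.5 CPM in MycT58A and 38.4 ± 19.4 CPM in EV tumours, against 0.61 ± 0.766 CPM in controls. Its folds of 99.9 and 63.2 became 351 and 227 without control replicate 3. The falls on this list were those of Xiap, Birc2 and the initiator Casp9 in both tumour groups and of Cycs in EV tumours. In EV tumours the Casp9 call ended without control replicate 2 or 3 (edgeR adjusted p = 0.095 and 0.0826), and that of Cycs without any 1 control, EV replicate 1, or MycT58A replicate 1 or 3 (edgeR adjusted p = 0.0516 to 0.122). Birc3, an IAP induced by NF-kB, was 5.96-fold lower in MycT58A than in EV tumours (edgeR adjusted p = 0.0167), at 1.55, 1.21 and 0.767 CPM in MycT58A tumours and 7.95, 8.88 and 4.25 CPM in EV tumours. In that comparison the median of the list was 0.23.

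Of the death receptor pathway, 11 of 13 genes were tested, and 8 rose and 0 fell in EV tumours (median log2 fold change 2.55), as in MycT58A tumours (2.06). Of all tested genes, 30.7% rose in EV tumours (median 0.14) and 31.2% in MycT58A tumours (median -0.025). The kinase Ripk1 averaged 29.2 ± 3.7 CPM in MycT58A tumours and 49.75 ± 7.12 CPM in EV tumours, against 5.32 ± 0.823 CPM in controls (SD, n = 3 each). It rose 5.49-fold and 9.34-fold (edgeR adjusted p = 6.28e-05 and 2.83e-05). The adaptor Fadd rose 3.49-fold and 3.59-fold in MycT58A and EV tumours. Casp8, which cleaves BID, rose 4.24-fold in MycT58A and 8.99-fold in EV tumours, the second being 5.63-fold without EV replicate 2. The TNF receptor Tnfrsf1a rose 4.17-fold and 8.21-fold, with 5.34-fold in EV tumours without EV replicate 2, and the TRAIL receptor Tnfrsf10b 4.32-fold in MycT58A tumours. Tnfrsf10b also rose 5.84-fold in EV tumours, or 3.62-fold without EV replicate 2. Ripk3, a kinase of necroptosis, rose 42.1-fold in EV tumours from 0.208 CPM in controls, 22.5-fold without the library labelled EV replicate 3 and 98-fold without control replicate 2. In MycT58A tumours Ripk3 rose 7.15-fold (edgeR adjusted p = 0.0169), a call that ended without control replicate 1 or 3 (edgeR adjusted p = 0.0501 and 0.063). The summed microglia and macrophage markers, which also moved with the groups, were 53.9 to 118 CPM in MycT58A tumours, 307 to 449 CPM in EV tumours and 173 to 202 CPM in controls; their part in these rises was not tested. Between the tumours the median was -0.98 and 0 of 11 passed, where 8.3% of all tested genes did. Of the 11, 6 had an unadjusted p under 0.05, as did 31.1% of all tested genes. The number called there was 4 with DESeq2 and 1 with limma-voom. DESeq2 called 3446 genes in all in that comparison, and edgeR 1259.

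Among 8 mitochondrial porins and partners 1 rose in EV tumours, and 1 rose and 1 fell in MycT58A tumours (medians 0.34 and 0.22). Bcap31, an endoplasmic reticulum partner of BCL2 proteins, rose 1.52-fold in EV tumours and was 1.59-fold lower in MycT58A than in EV tumours (edgeR adjusted p = 0.0457); the first call ended without control replicate 2 (edgeR adjusted p = 0.0577). In MycT58A tumours Tmbim6 fell 2-fold and Vdac3 rose 1.64-fold, a call that ended without control replicate 2 or 3 or MycT58A replicate 1 or 2 (edgeR adjusted p = 0.0577 to 0.079). Of 18 regulators of the family, 5 rose and 5 fell in EV tumours (median 0.11), and 6 rose and 6 fell in MycT58A tumours (-0.09). Of all tested genes, 57% passed in EV tumours (median 0.14) and 62.2% in MycT58A tumours (median -0.025), in either direction. E2f1 rose 29.2-fold in MycT58A and 20.5-fold in EV tumours, and Akt1 1.94-fold and 1.98-fold. The p53 relative Trp73 fell 53.8-fold in MycT58A and 16.7-fold in EV tumours, or 112-fold without MycT58A replicate 3 and 26.1-fold without EV replicate 2. Foxo3, a transcription factor upstream of Bcl2l11 and Bbc3, fell 3.18-fold and 2-fold, and Ddit3 3.84-fold in MycT58A tumours. In EV tumours Ddit3 fell 2.12-fold (edgeR adjusted p = 0.0428). That call ended without any 1 control, EV replicate 2 or 3, or MycT58A replicate 1 (edgeR adjusted p = 0.0611 to 0.153).

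The p53 target Cdkn1a, a cell-cycle inhibitor, stood at 35.4, 37.2 and 30.2 CPM in MycT58A tumours, at 107, 132 and 1176 CPM in EV tumours and at 16.5, 20.1 and 31.3 CPM in controls. It was 13.8-fold lower in MycT58A than in EV tumours (edgeR adjusted p = 0.0415), and 3.49-fold without the library labelled EV replicate 3 (edgeR adjusted p = 0.00532). It rose 20.9-fold in EV tumours against control, 5.36-fold without that library. The calls between the tumours for Bmf, Birc3, Bcap31 and Cdkn1a all ended when only the 2 tumour groups were in the edgeR fit (adjusted p = 0.072 to 0.132) or without any 1 MycT58A library (edgeR adjusted p = 0.0687 to 0.173). Those for Bmf, Bcap31 and Cdkn1a also ended without any 1 control library (edgeR adjusted p = 0.0733 to 0.0899).

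**Figure D4:**
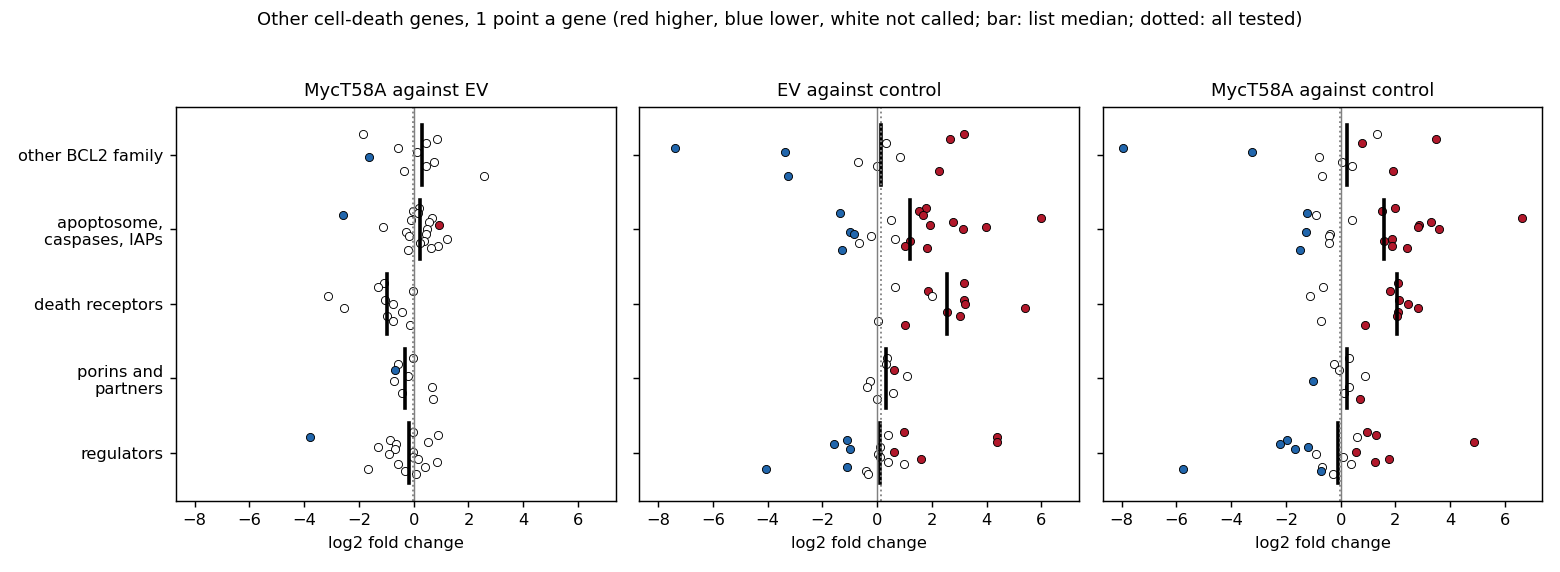
Log2 fold change (horizontal axis) of each tested gene on 5 lists of other cell-death genes in the 3 comparisons, 1 point a gene, with the list median as a bar and the median of all tested genes as a dotted line. Death receptor genes lie to the right in both comparisons with control (8 of 11 rose in each), with medians of 2.55 and 2.06, and at -0.98 between the tumour groups, where 0 of 11 passed. Of all tested genes, 30.7% rose in EV tumours and 31.2% in MycT58A tumours, and 8.3% passed between the tumour groups.

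Over the 9 libraries the members fell into patterns that the group difference between tumour and cerebellum dominates. The Pearson correlation of log2 CPM was 0.98 between Bax and Bid and 0.97 between Bak1 and Bcl2l11, and -0.84 between Bak1 and Bcl2l1. Of all named genes tested, those most like Bak1 were Gpx1, Tubb6 and Soat1 (0.997 to 0.995), those most like Bax Apobec3, Ndufaf6 and Nfatc3 (0.995 to 0.994) and those most like Bid Nfatc3, Aprt and Arsi (0.996 to 0.995). Most like Mcl1 were Ube2d2a, Wbp5 and Kat6b (0.993 to 0.987), and most like Bcl2l11 were Id1, Nkx1-2 and Rilpl2 (0.987 to 0.979). Most like Bcl2l1 were Dpp6, Emc9 and Sall2 (0.995 to 0.992), most like Bcl2 Ogfod1, Tmf1 and Apbb2 (0.968 to 0.966), and most like Bbc3 Sytl1, Klrg2 and Cdh3 (0.967 to 0.96). The points share their libraries and fall into separate groups, so these values are descriptions over 9 libraries.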

How the data were processed

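The deposited table holds raw counts per gene symbol from RNA-seq of total RNA in 9 mouse libraries. The submitters' processing notes name bcl2fastq, TopHat, edgeR and build mm10. Read counter, strand setting and versions: not given in the sources used here. Overlapping genes may therefore share reads. Genes were kept with filterByExpr (minimum count 10, minimum total 15), scaled with TMM and fitted with edgeR 4.0.16 (R 4.3.3) over all 9 libraries (glmQLFit, glmQLFTest), with Benjamini-Hochberg adjustment over 15171 genes. The SE is the log2 fold change over the root of F. Each gene has 1 dispersion, so a comparison also rests on the spread of the third group. The filter took 5 genes from the list of 15 BCL2 relatives and 2 of 13 from the death receptor list. Log2 CPM used a prior count of 2. Exon lengths and positions are from GENCODE vM21 (mm10). Genotype and source labels set the groups, replicates are numbered in sample order, and no pairing is given.

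Named genes were the 10 members, Myc, Trp53, up to 5 genes per list and comparison past the threshold by smallest p, and the 3 genes most correlated with each called member; Hrk, Xiap, Birc2, Casp9 and Cycs were named after their values were seen. The members and lists were chosen with earlier results of these data known. Results for some listed genes are not reported here. Alternatives were RLE or library-size scaling, no filter, a 1 CPM filter in every library of a group, fitting 2 groups alone, DESeq2 1.42.0, limma-voom (limma 3.58.1) with and without weights by group, and leaving out each library. The fit was checked on simulated counts. Depth was 16631523 to 30410089 counts, and low levels such as those of Bid in controls rest on few counts. Figures were drawn with matplotlib 3.10.9.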

Additional observations from a re-analysis of the deposited data

How the results depend on the processing

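No paired analysis was possible because the labels give no replicate numbers that groups share. Of 510 member values under the alternatives, 449 kept direction and side of the threshold, 24 lost the call, 15 gained it and 22 changed sign, each of these in a difference that had not passed. The number of genes changed in MycT58A against EV tumours, 1259 by edgeR, was 34 with only the 2 groups compared, 3446 by DESeq2 and 449 by limma-voom with weights by group, and ranged from 36 to 3977 with 1 library left out; the cause was not tested. Library-size scaling moved the median log2 fold change of all genes there from -0.04 to -0.17 and the share of higher calls from 39.6% to 24.3%; limma-voom gave 58.4%, RLE 34.7%. In that comparison 1 member was called by DESeq2 and 1 by limma-voom, and 0 to 2 with 1 library left out. Members called against control ranged from 5 to 8 in EV and from 6 to 9 in MycT58A tumours over all alternatives. The mean log2 ratio of pro- to anti-apoptotic counts was 1.13 higher in EV tumours than in controls, 2.043 for Bax to Bcl2 and 2.122 for Bax to Bcl2l1. In MycT58A tumours it was 1.69 higher, with 2.482 for Bax to Bcl2, 2.859 for Bax to Bcl2l1 and, per kb of exon (added after the data were seen), 1.501. Signs turned between the tumours for Bcl2 (-0.024 with RLE, -0.023 with DESeq2, -0.116 with library size, -0.034 at 1 CPM, -0.061 with 2 groups; -0.143 to 0.161 leaving out libraries), Bbc3 (-0.063 with library size, -0.014 with 2 groups; -0.131 to 0.46), Bad (0.008 and 0.005 by limma-voom without and with weights; -0.405 to 0.356), Bcl2l1 (-0.647 to 0.102) and Bcl2l11 (-0.25 to 0.138). For Bad in MycT58A tumours against control they turned with RLE and DESeq2 (-0.019 each) and library size (-0.059; -0.041 to 0.099 leaving out libraries), and in EV tumours with 1 library left out (-0.314 to 0.459). List counts between the tumours stayed within 0 to 5.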
